A study of Homo sapiens with 9 samples.

Results

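CD209, VSIG4, FN1, IL10 and CD163, genes commonly used as signs of alternative macrophage activation, were followed across 9 arrays of THP-1 cells. This line was started from a human monocytic leukaemia, and the phorbol ester PMA turns it into macrophage-like M0 cells. All rows of the deposited table annotated with 1 of these symbols and no other gene were taken. This gave 1 row for each of the 5 genes, among 16098 rows named with exactly 1 gene and 53617 rows in all. Rows were picked by symbol alone, without a limit on level. The cells were given cisplatin at 0.5 µM, osimertinib at 100 nM, or vehicle for 16 h, with 3 replicates per group that the labels call biological and independent, and each replicate was measured on its own whole-transcript array (Human Gene 2.0 ST). All groups share the PMA differentiation and the single cell line. The drugs were given at different molar doses, so their responses are set side by side rather than matched.

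Macrophages exposed to interleukin-4, interleukin-13, interleukin-10 or glucocorticoids take on states grouped as alternative, or M2, activation, with scavenging, tissue repair and dampened inflammation as typical functions. CD209 (DC-SIGN) is a mannose-binding C-type lectin that captures pathogens and binds ICAM molecules on T cells. CD163 takes up haptoglobin-haemoglobin complexes, VSIG4 binds complement C3b and restrains T cells, FN1 encodes the matrix protein fibronectin, and IL10 encodes the cytokine that limits inflammatory gene expression through STAT3. Cisplatin crosslinks DNA, and osimertinib is a covalent inhibitor of mutant epidermal growth factor receptor. The 5 genes are not under 1 common signal, and several of them also serve outside alternative activation.

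The 250 bases upstream of the annotated start are shown for the 4 genes that passed the test with at least 1 drug. Whether these bases take part in the response to the drugs was not tested. Sequences are from RefSeq on GRCh38.p14, which listed a start for all 5 genes, and run 5′ to 3′ toward the start. Capitals mark matches to a searched motif. For IL10, which has 3 listed starts, the one farthest upstream is shown.
CD209 (chr19:7747535-7747784, minus strand): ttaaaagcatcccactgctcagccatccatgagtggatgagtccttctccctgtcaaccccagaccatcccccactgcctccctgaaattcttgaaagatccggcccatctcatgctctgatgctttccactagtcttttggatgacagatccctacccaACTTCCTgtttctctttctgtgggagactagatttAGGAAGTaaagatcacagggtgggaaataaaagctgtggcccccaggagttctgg
VSIG4 (chrX:66040081-66040330, minus strand): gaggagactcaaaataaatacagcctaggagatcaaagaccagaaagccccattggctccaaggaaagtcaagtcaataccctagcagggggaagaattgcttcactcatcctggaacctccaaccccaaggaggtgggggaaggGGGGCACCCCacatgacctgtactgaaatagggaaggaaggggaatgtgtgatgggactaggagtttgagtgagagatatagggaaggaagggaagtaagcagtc
FN1 (chr2:215436069-215436318, minus strand): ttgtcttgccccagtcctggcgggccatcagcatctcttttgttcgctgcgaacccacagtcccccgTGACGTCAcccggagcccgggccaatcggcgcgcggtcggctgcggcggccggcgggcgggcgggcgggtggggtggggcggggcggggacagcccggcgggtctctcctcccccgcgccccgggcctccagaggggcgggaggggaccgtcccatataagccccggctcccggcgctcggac
IL10 (chr1:206772495-206772744, minus strand): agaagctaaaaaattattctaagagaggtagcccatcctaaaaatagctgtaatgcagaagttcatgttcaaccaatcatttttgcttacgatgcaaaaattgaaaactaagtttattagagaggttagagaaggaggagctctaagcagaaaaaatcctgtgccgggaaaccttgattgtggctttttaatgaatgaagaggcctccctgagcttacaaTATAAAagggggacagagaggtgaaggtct

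Both strands were searched for the letters TGANTCA (AP-1), TGACGTCA (cyclic AMP response element), TTCNNNGAA (STAT), AGGAAGT (PU.1, the myeloid ETS factor), TTGCNNAA (C/EBP), GAANNTTC (heat shock element), TATAAA (core promoter box) and the kappa B consensus; the matches do not overlap, and each motif matched in at most 1 of the 5 genes. CD209 held AGGAAGT letters at 90 to 84 and at 55 to 49 bases before the start, once on each strand, and 7.01% of 35116 RefSeq promoter windows of the same length held this motif. FN1 held TGACGTCA at 183 to 176 bases before the start, as did 1.65% of windows. VSIG4 held a kappa B match at 105 to 96 bases (9.96% of windows), and the IL10 window shown held TATAAA at 30 to 25 bases (10.7%). A second IL10 start had TGANTCA letters at 69 to 63 bases, and CD163 had a C/EBP match at 211 to 204 bases, found in 6.57% and 9.05% of windows. The STAT and heat shock letters were in none of the 5 genes' windows, and most windows lack them, since 6.57% and 5.78% of all windows held them. The upstream window of FN1 was rich in G and C (76.4%), those of CD209 (49.6%), VSIG4 (50.4%) and the IL10 start shown (38.4%) were below the median of all windows (58.0%), and CD163 was at 33.6%.

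Of the 5 genes, 4 rose with cisplatin and 3 with osimertinib, and 0 fell with either drug. Over all 16098 named rows, 14.7% were called with cisplatin and 14.6% with osimertinib by limma at a Benjamini-Hochberg adjusted p under 0.05, and 7.39% and 7.66% were called higher and 7.27% and 6.94% lower. CD209 gained most with cisplatin, FN1 and VSIG4 rose with both drugs, IL10 passed the test with cisplatin and not with osimertinib, and CD163 did not pass it in any comparison. The 2 comparisons with vehicle share the 3 vehicle arrays. A level on this array reflects the RNA of the whole culture, so more cells with a transcript and more of it per cell cannot be told apart.

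The lectin CD209 (Entrez gene 30835) was at log2 levels of 7.28, 7.48 and 7.58 on the cisplatin arrays, 6.91, 6.96 and 6.91 on the osimertinib arrays, and 6.33, 6.45 and 5.99 on the vehicle arrays. The 3 groups did not overlap, with cisplatin highest and vehicle lowest. With cisplatin it was 2.28-fold higher (95% interval 1.91 to 2.71; log2 difference 1.19, SE 0.11, limma adjusted p = 5.03e-05), the 130th largest difference in either direction among all named rows. With osimertinib it was 1.59-fold higher (1.33 to 1.89; log2 difference 0.67, SE 0.11, limma adjusted p = 0.00219). The vehicle arrays had the widest spread of the groups, with an SD of 0.24, beside 0.15 with cisplatin and 0.029 with osimertinib (n = 3 each). Osimertinib replicates 1 and 3 held exactly equal values for CD209, so the spread of that group is uncertain.

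CD209 was lower with osimertinib than with cisplatin by a log2 difference of -0.52 (95% interval -0.77 to -0.27). This comparison did not pass the test over all named rows (limma adjusted p = 0.102), although the arrays of the 2 drugs did not overlap, which held for 10.5% of named rows. Few rows passed between the drugs, 62 of 16098 (0.385%), 28 of them higher (0.174%) and 34 lower (0.211%) with osimertinib. The call for CD209 depended on the setting: it passed where only the 7442 brighter genes (mean level at least 4.28, the median gene) entered the fit with 1 row each (limma adjusted p = 0.0341), with quantile normalization on top (0.0497), and without vehicle replicate 3 (0.0423), and the adjusted p reached 0.342 when other arrays were left out.

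FN1 (Entrez gene 2335), the fibronectin gene, was at 11.28, 11.41 and 11.44 with cisplatin, 11.21, 11.29 and 11.21 with osimertinib, and 10.55, 10.59 and 10.63 with vehicle on the log2 scale. Both drug groups lay well above the vehicle arrays, by at least 0.65 with cisplatin and 0.57 with osimertinib, and the drug groups overlapped each other. FN1 was 1.72-fold higher with cisplatin (95% interval 1.61 to 1.84; log2 difference 0.79, SE 0.044, limma adjusted p = 1.22e-06). It was 1.56-fold higher with osimertinib (1.46 to 1.67; log2 difference 0.64, SE 0.044, limma adjusted p = 4.20e-06). Its difference between osimertinib and cisplatin was -0.14 (95% interval -0.24 to -0.044) and did not pass over all named rows (limma adjusted p = 0.346). In both comparisons with vehicle FN1 had the smallest standard error and the lowest adjusted p of the 5 genes, while its difference was smaller than that of CD209. Osimertinib replicates 1 and 3 were equal here as well.

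VSIG4 (Entrez gene 11326), the complement receptor of the immunoglobulin superfamily, was at 5.85, 6.15 and 6.01 with cisplatin, 6.06, 6.15 and 5.90 with osimertinib, and 5.57, 5.41 and 5.42 with vehicle. Each drug group lay above all vehicle arrays, and the 2 drug groups overlapped. VSIG4 was 1.45-fold higher with cisplatin (95% interval 1.24 to 1.70; log2 difference 0.54, SE 0.10, limma adjusted p = 0.00453). It was 1.48-fold higher with osimertinib (1.27 to 1.74; log2 difference 0.57, SE 0.10, limma adjusted p = 0.00316). Between osimertinib and cisplatin the difference was 0.030 with a 95% interval of -0.20 to 0.26, or folds of 0.872 to 1.20, and its sign changed without cisplatin replicate 1 (-0.048) or osimertinib replicate 2 (-0.026). VSIG4 was the only one of the 4 genes called with at least 1 drug whose mean was not highest with cisplatin.

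IL10 (Entrez gene 3586) was at 2.52, 2.65 and 2.78 with cisplatin, 2.31, 2.45 and 2.36 with osimertinib, and 2.22, 2.06 and 2.11 with vehicle. The 3 groups did not overlap, in the order cisplatin, osimertinib, vehicle, but the gap between the nearest arrays was only 0.071 between osimertinib and cisplatin and 0.094 between osimertinib and vehicle. With cisplatin IL10 was 1.44-fold higher (95% interval 1.24 to 1.67; log2 difference 0.52, SE 0.10, limma adjusted p = 0.00413). With osimertinib the log2 difference was 0.25 (95% interval 0.028 to 0.46), which did not pass the test (limma adjusted p = 0.138), and between osimertinib and cisplatin it was -0.28 (-0.50 to -0.058; adjusted p = 0.448), so the drugs are not shown to differ. The IL10 row lay below 4.28, the median of the gene means, on all arrays; background and detection were not measured here, so the fold is that of a dim row.

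CD163 (Entrez gene 9332), the haemoglobin scavenger receptor, was at 2.45, 2.56 and 2.40 with cisplatin, 2.34, 2.49 and 2.15 with osimertinib, and 2.45, 2.45 and 2.61 with vehicle. The groups overlapped in all 3 comparisons. Vehicle replicates 1 and 2 and cisplatin replicate 1 held exactly equal values, so the spread of the vehicle group is uncertain. The log2 difference was -0.034 with cisplatin (95% interval -0.27 to 0.21; limma adjusted p = 0.892) and -0.18 with osimertinib (-0.42 to 0.064; limma adjusted p = 0.362). Between osimertinib and cisplatin it was -0.14 (-0.38 to 0.099). The intervals bound a rise in the deposited values to 1.15-fold with cisplatin and 1.05-fold with osimertinib, and this row is also below the median level. CD163L1, a close relative of CD163 in the same receptor family, averaged 3.68 ± 0.086 on cisplatin arrays, 3.71 ± 0.025 on osimertinib arrays and 3.68 ± 0.081 on vehicle arrays (SD, n = 3 each) and was not called (limma adjusted p = 0.990 and 0.877 for the drugs against vehicle). CLEC4M, a close relative of CD209, had no row named with it alone and was not analysed here. Whether probes of CD209 also bind it is not shown by the sources used here.

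**Figure D1:**
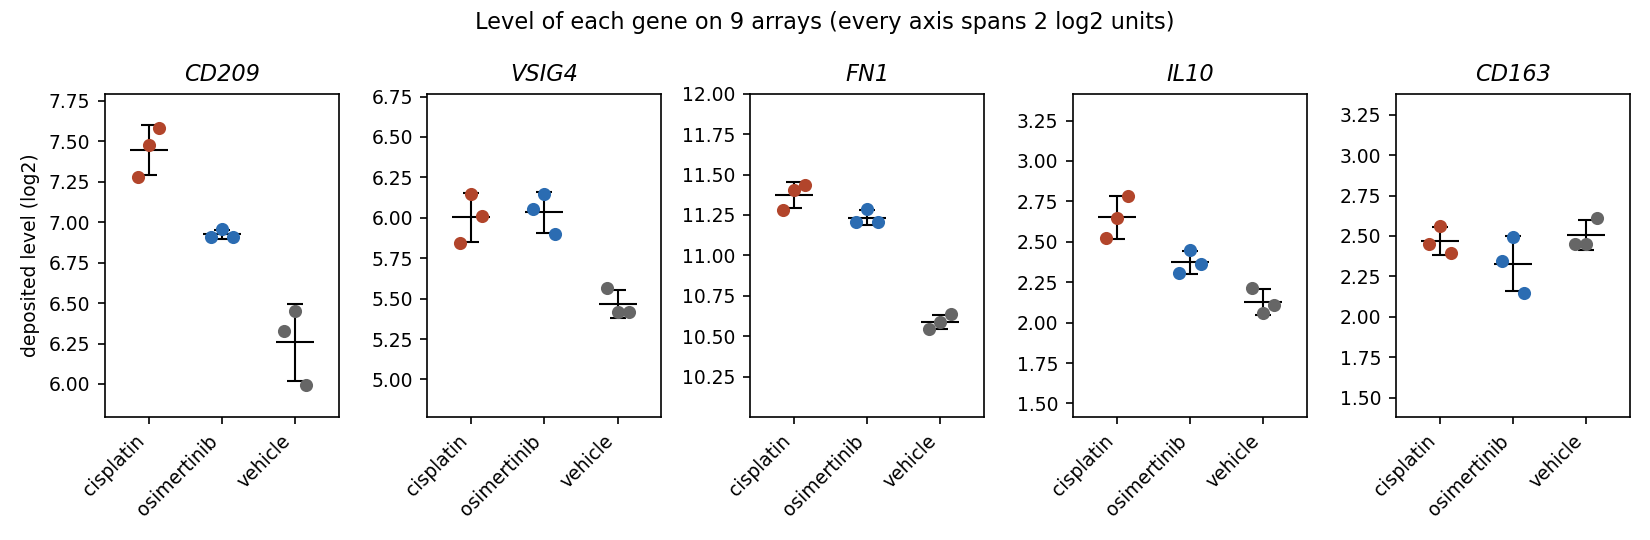
Deposited log2 level of each gene on each array (points), with the group mean and SD (bars, n = 3 each), for cisplatin, osimertinib and vehicle. The drug arrays of CD209, FN1, VSIG4 and IL10 lie above all vehicle arrays, and those of CD163 overlap them; levels of different genes are not comparable.

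**Figure D2:**
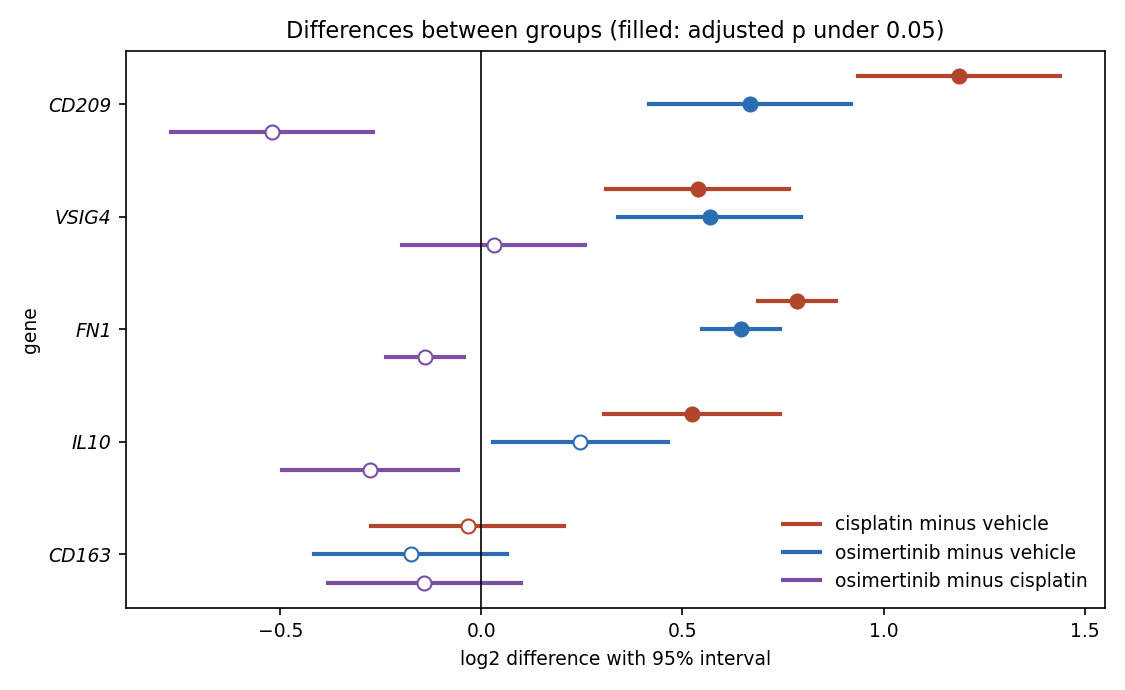
Log2 difference with its 95% interval for each gene in the 3 comparisons; filled points have a limma adjusted p under 0.05 over 16098 named rows. CD209, VSIG4 and FN1 are filled for both drugs against vehicle, IL10 for cisplatin alone, and no gene is filled for osimertinib minus cisplatin.

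Set among all named rows, the median log2 difference was 0.040 with cisplatin and 0.027 with osimertinib. FN1 had the 428th and the 730th largest differences in either direction in these comparisons, and CD209 the 130th and the 666th. VSIG4 came 1180th with cisplatin and 1052nd with osimertinib, and IL10 came 1262nd and 4611th. Many other transcripts thus moved by as much as VSIG4 or IL10, and the arrays of drug and vehicle did not overlap for 28.3% of named rows with cisplatin and 28.5% with osimertinib. The calls over all rows numbered 1190 higher and 1171 lower with cisplatin, and 1233 higher and 1118 lower with osimertinib. With quantile normalization on top the splits were 1971 and 1086, and 1995 and 1049; median centring gave 1593 and 808 for osimertinib, and fitting every row of the table gave 1870 and 3425 for cisplatin and 1857 and 3287 for osimertinib.

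**Figure D3:**
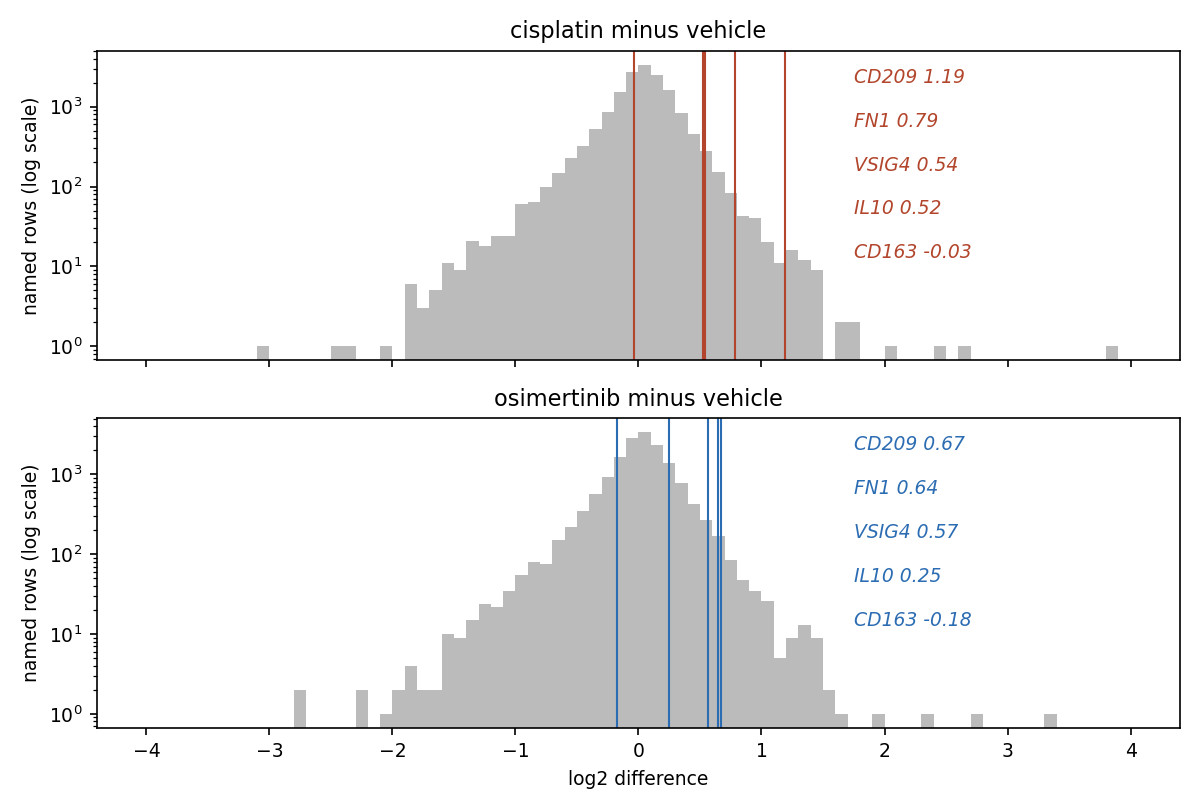
Number of named rows (log scale) by log2 difference, in bins of 0.1, for cisplatin minus vehicle and osimertinib minus vehicle; vertical lines mark the 5 genes. CD209 and FN1 lie in the upper tail with both drugs, and CD163 lies near the middle.

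Among other genes of alternative activation, 22 of 36 listed were named in the table; with each drug 5 rose and 1 fell, beside 14.7% and 14.6% of all named rows called in either direction. The median log2 difference of the 22 was 0.13 with cisplatin and 0.15 with osimertinib, beside 0.040 and 0.027 over all named rows. The chemokine CCL22, a ligand of CCR4 made by alternatively activated macrophages, was 5.62-fold higher with cisplatin and 5.14-fold higher with osimertinib. IL4R, the receptor chain for interleukin-4 and interleukin-13, rose by 0.71 with cisplatin and 0.49 with osimertinib on the log2 scale. CISH, a feedback inhibitor induced by STAT5, rose by 1.06 and 0.84. Among the listed genes that were called and are named here, the rows of CISH, CCL24, CXCL9, CXCL10, CD86, PTGS2 and SOCS3 lay below the median level of 4.28.

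The eosinophil chemokine CCL24 rose by 1.16 with cisplatin, and PPARG, a lipid-sensing nuclear receptor, rose by 0.35 with osimertinib. Both also differed between the drugs, CCL24 by -0.74 (limma adjusted p = 0.0452) and PPARG by 0.44 (limma adjusted p = 0.0355) for osimertinib minus cisplatin, though these calls were lost in most alternatives, where the adjusted p reached 0.204 and 0.147. On leaving out 1 array, that of CCL24 held only without vehicle replicate 1 or cisplatin replicate 1, and that of PPARG only without cisplatin replicate 3. The T-cell inhibitory ligand gene PDCD1LG2 rose by 0.98 with cisplatin and 0.62 with osimertinib; the osimertinib call was lost without vehicle replicate 1 (adjusted p = 0.0952) or 3, without osimertinib replicate 1 or 2, and when every row of the table was fitted (0.0563). MERTK, a receptor for dying cells that glucocorticoids raise, fell by 0.44 with cisplatin and 0.52 with osimertinib. PPARG and PDCD1LG2 were named after their values were seen.

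The list of classical activation genes, the state induced by interferon-gamma and bacterial products, had 13 of 26 named. Of these 5 rose and 0 fell with cisplatin (median log2 difference 0.13), and 2 rose and 1 fell with osimertinib (median 0.064), beside 14.7% and 14.6% of all named rows called in either direction and all-row medians of 0.040 and 0.027. CCL5, a T-cell chemokine, was 14.4-fold higher with cisplatin and 10.6-fold higher with osimertinib. The other rises with cisplatin were in the interferon-induced chemokines CXCL9 (0.52) and CXCL10 (0.41), the costimulatory ligand CD86 (0.62) and the transcription factor IRF1 (0.49), and each of these 4 calls was lost on leaving out single arrays. For CXCL9 these were vehicle replicates 2 and 3 and cisplatin replicate 3 (adjusted p up to 0.107), and for CXCL10 vehicle replicates 1, 2 and 3 and cisplatin replicates 1 and 2 (up to 0.103). For CD86 they were replicates 2 and 3 of vehicle and of cisplatin (up to 0.128), and for IRF1 vehicle replicates 1 and 2, cisplatin replicates 2 and 3 and osimertinib replicate 3 (up to 0.133). All 4 were also lost when every row of the table was fitted (adjusted p 0.0567 to 0.0792) and with only the 2 groups compared, and those of CD86 and IRF1 with a replicate block (0.0514 and 0.0583). With osimertinib IRF1 rose by 0.64 and PTGS2, the inducible prostaglandin synthase, fell by 0.64. TNF, a central inflammatory cytokine, was at -0.17 with cisplatin and -0.098 with osimertinib and was not called.

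**Figure D4:**
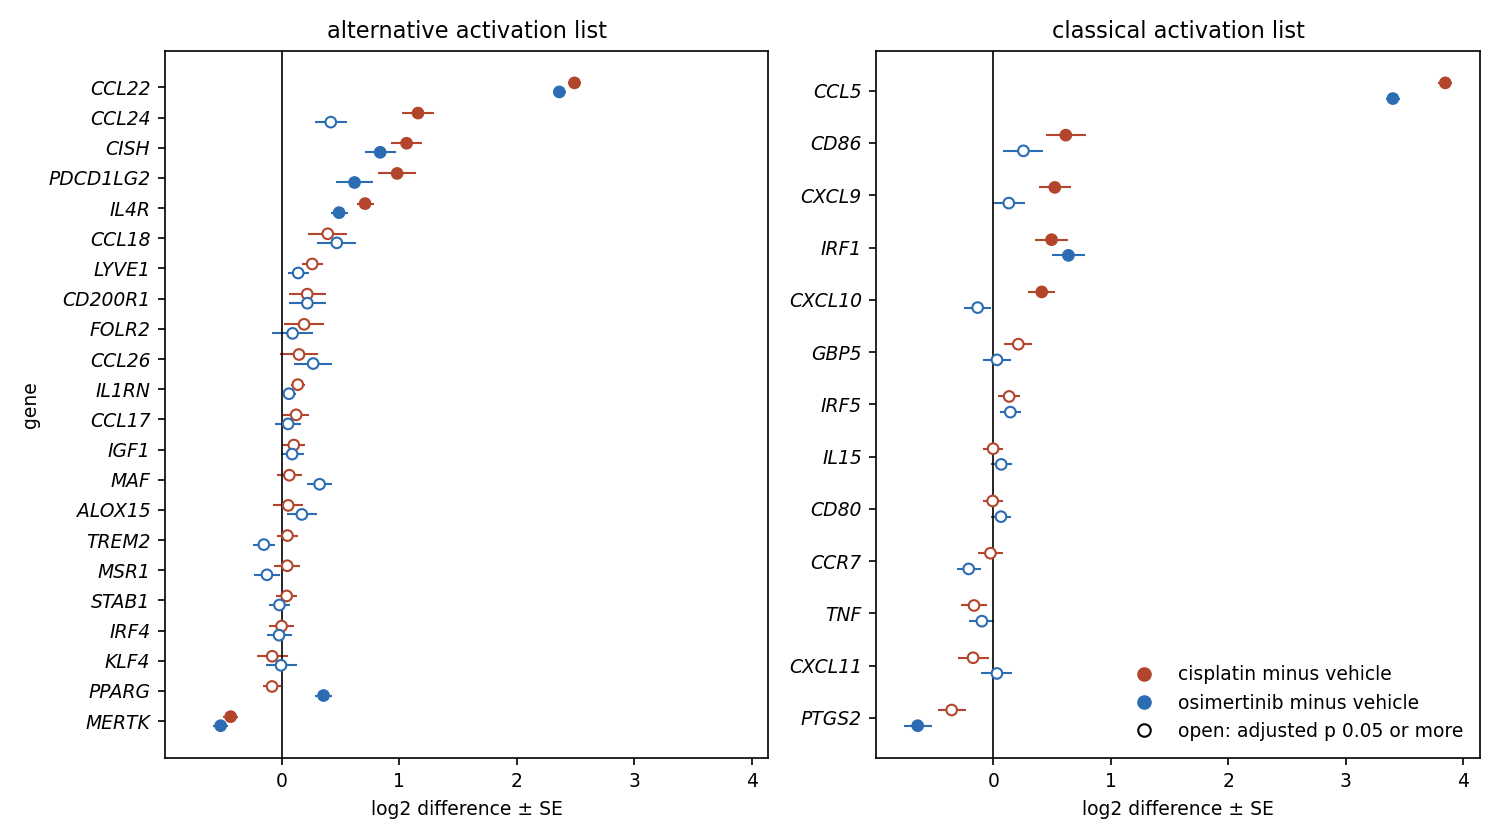
Log2 difference ± SE of every named gene of the alternative and classical activation lists, for cisplatin minus vehicle and osimertinib minus vehicle; filled points have a limma adjusted p under 0.05. CCL22 and CCL5 stand far to the right in their lists, and most other genes lie within 1 log2 unit of 0.

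Around IL10, a list of receptor, signalling and response genes had 11 of 15 named, and these held no receptor chain of interleukin-10. Of the 11, 5 rose with cisplatin, 3 with osimertinib and 0 fell (median log2 difference 0.26 and 0.19). Over all named rows 7.39% and 7.66% were called higher, and the medians were 0.040 and 0.027. STAT3, JAK1 and TYK2 were not called with either drug. DUSP1, a dual-specificity phosphatase of MAP kinases, rose by 2.09 with cisplatin and 1.96 with osimertinib. SOCS3, the STAT3-induced inhibitor of cytokine receptors, rose by 0.61 with cisplatin and was at 0.40 with osimertinib, where it was not called (limma adjusted p = 0.0917). ETV3, a repressor that interleukin-10 induces in mouse macrophages, rose by 0.60 with cisplatin and was at 0.19 with osimertinib without being called. BCL3, an NF-kB regulator that interleukin-10 induces in mouse macrophages, rose by 0.37 with cisplatin, a call lost without cisplatin replicate 3 (adjusted p = 0.105) or vehicle replicate 2 or 3, and by 0.45 with osimertinib. IL4R, described above, completes the called genes. Of the other cytokines of the IL10 family, IL19, IL20, IL22, IL24 and IL26, 0 of 5 were called with either drug. Over all named rows 14.7% and 14.6% were called in either direction. Of these cytokines only IL24 was at or above the median level. IL24 was at 0.41 with cisplatin and -0.28 with osimertinib.

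For CD163, 6 of 14 genes of haemoglobin scavenging were named, of which 2 rose with cisplatin and 1 with osimertinib, beside 7.39% and 7.66% of all named rows called higher. HMOX1, the enzyme that degrades the haem taken up through CD163, rose by 0.66 with cisplatin and was at 0.16 with osimertinib (limma adjusted p = 0.0548), and it was lower with osimertinib than with cisplatin by a difference of -0.50 (limma adjusted p = 0.00133). LRP1, the receptor for haem bound to haemopexin, rose by 0.52 with cisplatin and 0.63 with osimertinib. ADAM17, the protease that sheds CD163 from the cell surface, was at -0.030 and 0.018 and was not called. In this list 0 genes fell with either drug, beside 7.27% and 6.94% of all named rows called lower.

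For CD209, ICAM3, its ligand on resting T cells, rose by 0.68 with cisplatin and 0.63 with osimertinib, while ICAM2 (0.43 and 0.25) and ICAM1 (0.13 and 0.018) were not called. Of 20 listed lectin-type receptors other than CD209, 2 were named: OLR1, the receptor for oxidised lipoprotein, rose by 1.50 and 1.38, and COLEC12 was not called. For VSIG4, 8 of 19 complement genes were named. C3, the source of its ligand, rose by 0.34 with osimertinib and was not called with cisplatin, C2 rose by 0.47 with cisplatin and 0.44 with osimertinib, and the anaphylatoxin receptor C5AR1 fell by 0.56 and 0.92. The C2 calls were lost on leaving out cisplatin replicate 2 (adjusted p = 0.0502) or, for osimertinib, vehicle replicate 1 (0.0678), osimertinib replicate 1 or osimertinib replicate 2. For FN1, 7 of 20 receptor and matrix genes were named. SDC4, a proteoglycan co-receptor for fibronectin, rose by 0.58 with cisplatin and 0.43 with osimertinib. THBS1, a matricellular glycoprotein, fell by 0.90 and 1.33, opposite to FN1.

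The genes most like each of the 4 called genes were taken as those with the smallest root mean square difference over the 9 arrays, after each gene was centred on its own mean, among 7439 genes at or above the median level. The arrays fall into treated and vehicle groups, and the distances include the shift between them. Nearest to CD209 were OCSTAMP, a membrane protein of osteoclast fusion, at 0.11 log2 units, RHOF (0.13) and NPR1 (0.16), beside a median of 0.50 over all candidates. Nearest to FN1 were TRIB1 (0.051), PGD (0.058) and EMC3 (0.060), to VSIG4 HAT1 (0.061), LRP1 (0.065) and SHOC2 (0.066), and to IL10 SPHK1 (0.069), PTPRN2-AS1 (0.072) and SLC51B (0.072). The medians over all candidates were 0.352 for FN1, 0.289 for VSIG4 and 0.257 for IL10. Each median was near the root mean square of the gene itself (0.504 for CD209, 0.345 for FN1, 0.280 for VSIG4, 0.228 for IL10). Such distances, also those between the 5 genes, depend on how far each gene moved. Among the 5 genes themselves, FN1 and VSIG4 were the closest pair (0.14), and CD209 and CD163 were farthest apart (0.55).

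Across the series, principal component 1 carried 44.4% of the variance of the named rows and put the 6 drug arrays at 8.89 to 15.7 and the vehicle arrays at -26.2 to -23.5; cisplatin replicate 1 was the extreme of component 2. Of 16 monocyte and macrophage markers 8 were named and 7 of them were at or above the median level. Of these 8, 3 rose and 1 fell with each drug: CD68 by 0.51 and 0.30, CSF1R by 0.50 and 0.29, CTSS by 0.35 and 0.37, with LAPTM5 falling by 0.23 and 0.26; the call of CSF1R with osimertinib was lost without vehicle replicate 1 (adjusted p = 0.0546) or osimertinib replicate 2 (0.0694), and without trend and robust fitting (0.0632), a setting that also ended the call of LAPTM5 with cisplatin (0.0602). Over all named rows, 7.39% were called higher and 7.27% lower with cisplatin, and 7.66% and 6.94% with osimertinib. The mean level of the 8 markers was 7.65 to 7.82 on cisplatin arrays, 7.63 to 7.78 on osimertinib arrays and 7.51 to 7.62 on vehicle arrays, so it moved in the direction of CD209, FN1 and VSIG4, and its part in those results was not tested. At or above the median level were 3 of the 5 named markers of T, NK and B cells, 0 of the 3 of fibroblasts and 2 of the 6 of epithelial cells. Of all these markers 0 rose with either drug, beside 7.39% and 7.66% of all named rows called higher. NCAM1 was lower with osimertinib than with cisplatin by a difference of -0.41 (limma adjusted p = 0.0458), a call lost in most alternatives. KRT18 fell by 0.35 with cisplatin. That call was lost in each alternative that left out no single array, except the level filter with 1 row a gene, the replicate block included (adjusted p = 0.0612), and without replicate 1 or 2 of vehicle, 2 or 3 of cisplatin, or 2 or 3 of osimertinib (adjusted p up to 0.139).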

How the data were processed

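Total RNA of 9 cultures was measured, 3 per group, with groups, doses, time and replicate numbers from the sample labels. Per the labels, a service provider ran standard Affymetrix pipelines on the scans, and the authors deposited values per gene; the submitters' processing notes list Affymetrix Power Tools. The sources used here do not give the log base or how background was corrected and probes were summarized. Reading the deposited values as log2 rests on their range, 0.65 to 13.17; another base would change every fold and no call. Columns differed by an SD of 0.033 at equal rank; whether and how the arrays were normalized to each other is not stated, and such a step could hide a shift of most transcripts. The platform annotation, which may be dated, gives exactly 1 gene for 16098 rows. The other 37519 rows carried no gene or several and count as unnamed, so the lists can miss genes that share a row. All 16098 Entrez identifiers matched RefSeq (GRCh38.p14).

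All named rows, dim ones included, entered 1 limma 3.58.1 model (R 4.3.3) with 3 group means, 6 residual degrees of freedom, variance trend and robust empirical Bayes. P-values are two-sided and Benjamini-Hochberg adjusted over 16098 rows within a comparison; SEs and intervals are moderated. Exactly equal values within a group occurred in 13.2% to 15.5% of named rows. Of the 5 genes, 3 reach the median gene level (4.28). For listed genes with several rows, the brightest row was taken. The text names the rows of the 5 genes and up to 4 genes per list and drug by smallest p. It also names the 3 nearest profiles of each called gene, and close relatives. Further list genes were named after their values were seen, among them TNF, STAT3, JAK1 and TYK2, which were not called. The genes and lists were chosen with earlier results of these data known, so their counts are not independent evidence. The fit was also run on simulated data with independent normal errors. Those data lacked the equal values seen here, so that run cannot vouch for these calls. Alternatives were quantile normalization, median centring, a level filter with 1 row a gene, fitting every row, plain empirical Bayes, fitting 2 groups, a replicate block and leaving out each array.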

Additional observations from a re-analysis of the deposited data

How the results depend on the processing

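The calls of CD209, VSIG4 and FN1 with both drugs and of IL10 with cisplatin held in every alternative run, and so did the missing calls of IL10 with osimertinib and of CD163. Leaving out 1 array at a time, the log2 difference with cisplatin ranged over 1.06 to 1.28 for CD209, 0.46 to 0.62 for VSIG4, 0.75 to 0.83 for FN1, 0.46 to 0.59 for IL10 and -0.081 to 0.020 for CD163, which changed sign without vehicle replicate 3 (0.020) and without cisplatin replicate 3 (0.0025), and with median centring (0.0034). With osimertinib it ranged over 0.54 to 0.76 for CD209, 0.51 to 0.64 for VSIG4, 0.62 to 0.67 for FN1, 0.21 to 0.29 for IL10 and -0.26 to -0.086 for CD163. Between the drugs it ranged over -0.60 to -0.45 for CD209, -0.048 to 0.10 for VSIG4 (negative without cisplatin replicate 1, -0.048, or osimertinib replicate 2, -0.026), -0.19 to -0.11 for FN1, -0.34 to -0.21 for IL10 and -0.22 to -0.052 for CD163. CD209 passed between the drugs with quantile normalization (-0.53), with the level filter and 1 row a gene, which tests fewer rows (-0.52), and without vehicle replicate 3. The level filter leaves out IL10 and CD163, which then have no value.

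Fitting every row of the table called 5295 rows with cisplatin and 5144 with osimertinib, against 2361 and 2351; this tests 53617 rows, and leaving out 1 array gave 1698 to 2287 and 1700 to 2562. Between the drugs 62 rows were called, 161 with quantile normalization, 130 with the level filter and 1 row a gene, 35 over every row, 33 without trend and robust fitting and 24 with only the 2 groups. Leaving out 1 array gave 23 to 64, with 26 without cisplatin replicate 2, 23 without cisplatin replicate 3, 30 without osimertinib replicate 2 and 33 without osimertinib replicate 3; the cause was not tested beyond these settings. Same-numbered arrays did not deviate together (correlations -0.21 to 0.0998, 0 of 9 over 0.1, and 2 of 9 arrays correlated best with their own number). Arrays of different numbers gave correlations of -0.089 to 0.169. With 3 arrays per group this check cannot decide whether same-numbered cultures belong together. With a replicate block 2109, 2088 and 42 rows were called in the 3 comparisons, and no call of the 5 genes changed. Of 56 calls of listed genes, 15 were lost in at least 1 alternative and 0 reversed. Precision is limited by 3 arrays per group.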
